A study of Homo sapiens with 12 samples.

Results

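The comparison set the 2 control groups of a p53 study against each other: 3 arrays of U2OS cells in 0.1% DMSO, the vehicle control for nutlin-3, against 3 arrays of U2OS cells given nothing, the control for doxorubicin. These 6 arrays were chosen by their labels, out of 12 in the series, and all probe sets other than the manufacturer's controls were described. U2OS is a human osteosarcoma cell line that the labels give as carrying endogenous wild-type p53. All 4 groups were grown in McCoy's 5A medium with fetal calf serum and antibiotics and harvested at 24 h, and each had 3 arrays. The remaining groups received 0.6 µg/ml doxorubicin or 10 µM nutlin-3. All cells are of 1 line, so no donor differs between the groups, and no other line was studied. Whether the replicates of a group came from separate cultures is not in the labels. The p-values therefore reflect only how much these 6 samples and the drug-treated ones vary within groups, and that variation may be technical. Nor do they say whether the untreated and DMSO cells were grown, extracted and hybridised together, so the DMSO itself and any difference in handling between the groups cannot be told apart.

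DMSO is an aprotic solvent that dissolves water-insoluble drugs such as nutlin-3, a small molecule that blocks the binding of MDM2 to p53. At far higher concentrations than in vehicle controls, DMSO is known to change membranes and to drive differentiation of some leukaemia and erythroid lines. Some of the actin genes described below are known targets of the SRF transcription factor. The ID genes encode helix-loop-helix proteins that lack a DNA-binding region and hold back differentiation factors. SREBF1 encodes the factor that turns on fatty acid synthesis, and SOX proteins are DNA-binding factors of stem and lineage cells.

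Biotin-labelled RNA had been hybridised to Affymetrix U133 Plus 2.0 arrays, and the values are MAS5 signals, linear intensities that depend on the probes, so levels are compared between groups and not between genes. A change is the difference of the group means of log2(signal + 16), DMSO minus untreated, which understates the change of dim genes. It is given with the standard error (SE) of a limma fit over all 12 arrays. A gene was called at a Benjamini-Hochberg adjusted p under 0.05 over the 13673 genes tested. Signals are means ± SD over 3 arrays, and precision is limited by having 3 arrays in each group.

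The DMSO arrays differed from the untreated arrays in 1930 of 13673 genes (14.1%), 1113 higher with DMSO (8.14%) and 817 lower (5.98%). Most changes were small: the median absolute change of the called genes was 0.49 on the log2 scale, and 153 genes (1.12%) were called and at least 2-fold apart, of which 40 were higher and 113 lower. All 3 arrays of a group lay on 1 side of the other group in 4580 genes (33.5%), and 1895 of these were called. At an unadjusted p under 0.05 there were 3885 genes. Over all genes the median change was 0.02, and the 5th and 95th percentiles were -0.57 and 0.51. In the same fit 7616 genes (55.7%) were called with doxorubicin against untreated cells and 3613 (26.4%) with nutlin-3 against DMSO.

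The direction of the calls depended on the scaling and on the probe sets. Of the calls, 57.7% were higher with DMSO in the arrays as deposited, 61.0% after quantile normalization, and 80.3% after centring each array on its median, which moved the median change of all genes by 0.12 to 0.15. With the mean of all probe sets of a gene 46.4% were higher, and over every probe set 41.6%. Leaving out 1 array left between 1100 and 1594 genes called: 1100 without DMSO 3, 1185 without DMSO 2 and 1236 without untreated 1. A total of 833 genes were called with all 6 arrays and without each of them in turn. Genes named below as higher or lower kept the call without each array in turn, unless arrays are named.

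**Figure D1:**
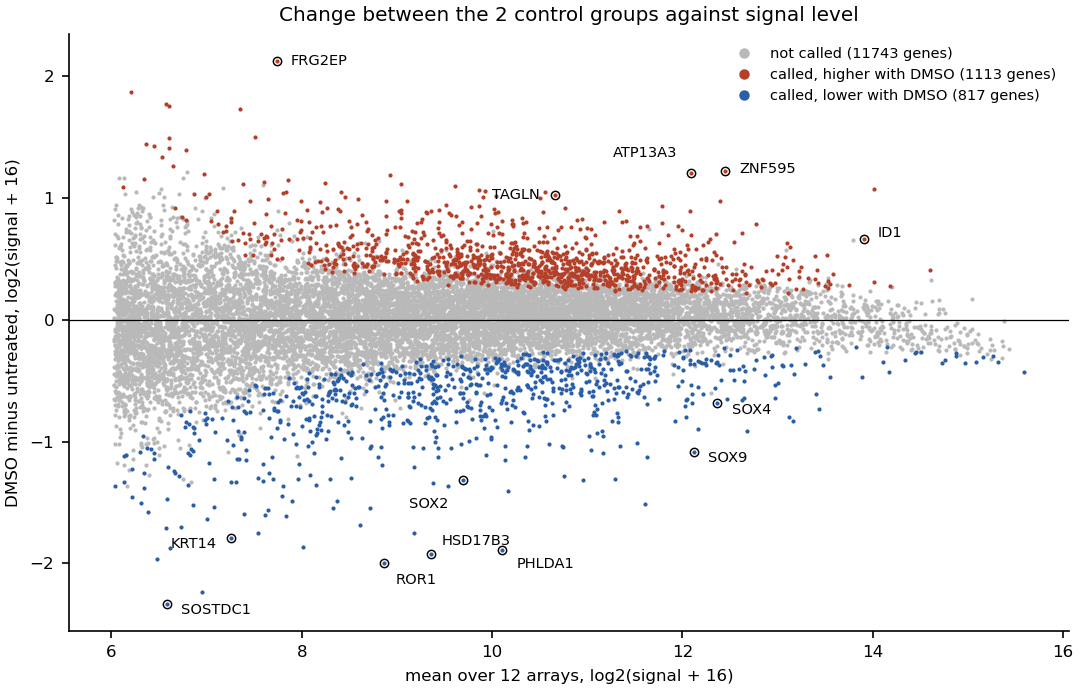
Change between DMSO and untreated cells (vertical axis, difference in log2(signal + 16)) against the mean level over 12 arrays (horizontal axis, log2(signal + 16)), 1 point a gene, with called genes in colour. The 817 called lower reach further from 0 than the 1113 called higher, and SOSTDC1, ROR1 and PHLDA1 lie at or below -1.89.

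The control probe sets of the arrays also differed between the groups. The 5′ probe set for 18S ribosomal RNA read 31480, 28647 and 28040 on the untreated arrays and 10460, 11183 and 9178 on the DMSO arrays. The untreated mean of 29389 ± 1836 was thus 2.86 times the DMSO mean of 10273 ± 1015, with no overlap. The 28S 5′ probe set was 3.23 times as high (17703 ± 776 against 5477 ± 590), the 28S middle probe set 1.43 times (5005 ± 232 against 3503 ± 370), and the Alu repeat probe set 1.33 times as high (46656 ± 2383 against 35052 ± 1996). The nutlin-3 arrays read 10032 ± 149 for 18S 5′, close to DMSO, and the doxorubicin arrays 17205 ± 2200. The ratio of 3′ to 5′ signal, which grows as RNA is degraded or labelled short, was 1.53 ± 0.0754 in untreated and 1.28 ± 0.0281 in DMSO cells for ACTB, and 1.02 ± 0.0356 against 0.942 ± 0.0102 for GAPDH. In a 2-sided exact permutation test each of these differences had p = 0.1, the smallest that 3 against 3 arrays can give. The same ratios of the spiked bacterial controls dap, lys, phe and thr overlapped between the groups. Ribosomal RNA signal and the ACTB ratio moved with the groups, and their part in the gene changes was not tested.

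**Figure D2:**
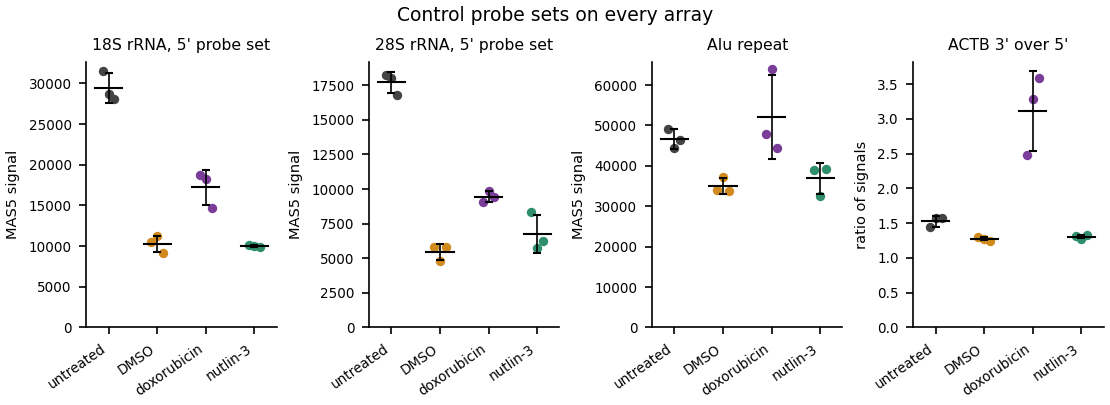
Control probe sets on every array of the 4 groups, with MAS5 signal or signal ratio on the vertical axis, a point for each array, and the mean ± SD as bars. The 18S and 28S signals of the 3 untreated arrays all exceed those of the 3 DMSO arrays, and the ACTB ratio is 1.53 in untreated and 1.28 in DMSO cells.

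Correlations of log2 signals between arrays ran from 0.983 to 0.985 within the untreated group, from 0.988 to 0.990 within the DMSO group and from 0.976 to 0.980 between them. Array medians were 98.6, 85.5 and 94.7 in untreated and 88.1, 84.4 and 79.6 in DMSO cells. Of 8 osteoblast and osteosarcoma markers 5 were tested, with RUNX2 and SPARC among them, and 9 of 10 fibroblast and mesenchymal markers were tested, with VIM and COL1A1 among them. Their summed signals were 24500 to 26709 and 64474 to 71187 on the untreated arrays, and 19985 to 23036 and 63118 to 70042 on the DMSO arrays. Of 10 leukocyte markers 4 passed the filter, with summed signals of 330 to 415 and 303 to 414, and of 8 endothelial markers 3 passed, with 438 to 589 and 389 to 430. PTPRC and CDH5, which define those cell types, did not pass it.

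The 15 largest falls and 15 largest rises were taken among called genes whose groups do not overlap, so for them the lack of overlap and the small p follow from the choice and support nothing further. The largest falls included secreted and surface proteins of developmental signalling. SOSTDC1, a secreted antagonist of BMP and Wnt signals, read 278, 803 and 579 in untreated and 114, 93.5 and 62.8 in DMSO cells. Its change was -2.33 (SE 0.38, adjusted p = 6.9e-04). The untreated arrays differed among themselves by more than the DMSO arrays did. SLITRK6, a neuronal transmembrane protein, was at 290, 379 and 366 against 56.6, 52.0 and 72.8 (change -2.24, SE 0.22, adjusted p = 1.0e-05). ROR1, a receptor for WNT5A, read 828, 1352 and 1118 without and 293, 233 and 250 with DMSO. It fell from 1099 ± 263 to 259 ± 30.8, a change of -2.0 (SE 0.16, adjusted p = 2.3e-06), and its highest reading was on untreated 2.

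HSD17B3, the enzyme that makes testosterone from androstenedione, read 862, 961 and 854 in untreated and 257, 153 and 282 in DMSO cells. DMSO 2 was the lowest array, and the change was -1.92 (SE 0.18, adjusted p = 5.9e-06). PHLDA1, a pleckstrin-homology protein, read 1367, 2302 and 1868 against 443, 473 and 513. It fell from 1846 ± 468 to 476 ± 35.4 (change -1.89, SE 0.16, adjusted p = 3.4e-06), with the lowest untreated reading on untreated 1. SLC2A12, a glucose transporter, had the smallest adjusted p of the 15 largest falls (change -1.75, SE 0.12, adjusted p = 6.1e-07).

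The guidance molecules SEMA3A (1113 ± 148 to 334 ± 31.5) and UNC5C, a netrin receptor (253 ± 20.9 to 71.0 ± 12.5), fell by 1.69 and 1.63 on the log2 scale. SMOC1, a matrix protein that antagonises BMP, and FMNL2, a formin that lengthens actin filaments, fell by 1.86 and 1.87. EHF, an ETS factor of epithelial cells, fell by 1.96, to a DMSO mean of 18.5 ± 5.47, which is under the filter level of 49.3. RNF43, a ubiquitin ligase that removes Wnt receptors, fell by 1.71 (SE 0.30, adjusted p = 0.0013). GALNT5, a mucin-type glycosyltransferase, fell by 1.75 by 1 of its 4 probe sets. The mean of all 4 gave -0.41 (adjusted p = 0.22). Like EHF, FMNL2 and GALNT5 had DMSO means under the filter level (47.1 ± 16.6 and 33.2 ± 14.4), so the sizes of these falls depend on the pseudocount. EHF, FMNL2 and GALNT5 passed the filter, set on the mean over 12 arrays, only through groups where they were higher. With a pseudocount of 1 and of 64 the change was -2.19 and -1.31 for FMNL2, and -2.17 and -1.12 for GALNT5. ANHX, a homeobox gene, fell by 1.70, and its adjusted p was 0.053 without untreated 2 and 0.069 without DMSO 3.

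The largest rises were mostly of genes that were dim in untreated cells. FRG2EP, a pseudogene of the FRG2 family, read 70.3, 52.8 and 66.3 in untreated and 299, 343 and 344 in DMSO cells. All 3 untreated readings were close to the filter level of 49.3, and the change was 2.13 (SE 0.18, adjusted p = 3.6e-06). FRG2 copies are near-identical, so the copy that gave the signal is uncertain. ART5, EEF2KMT, PLAC9, AP1G2-AS1, MED14OS, LINC01535, GAD1, ZNF441 and CABYR had untreated means between 24.5 and 40.2, under the filter level of 49.3, so the sizes of their changes, 1.34 to 1.87, depend on the pseudocount. For ART5, an ADP-ribosyltransferase family member, the change of 1.87 became 2.52 with a pseudocount of 1 and 1.12 with 64. AP1G2-AS1 and MED14OS are antisense transcripts, and whether the probe sets tell strands apart was not tested.

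Among brighter genes, ZNF595, a zinc-finger gene, read 2927, 2821 and 3620 without and 7171, 7564 and 7031 with DMSO. It rose from 3123 ± 434 to 7255 ± 276 (change 1.22, SE 0.09, adjusted p = 6.1e-07). ATP13A3, a polyamine transport ATPase, read 2066, 2718 and 2683 against 6373, 5467 and 5398 (change 1.21, SE 0.13, adjusted p = 1.8e-05). For each gene a dimmer probe set changed less or the other way: 0.18 for ZNF595 and -0.48 for ATP13A3, with means of both at 0.70 (adjusted p = 4.5e-04) and 0.36 (0.026). SERPINB7, a serine protease inhibitor family member, rose from 113 ± 52.0 to 332 ± 38.4 (change 1.5, adjusted p = 0.0086).

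Other large rises lost the call when any of several arrays was left out. FGF5, a growth factor, rose by 1.41 (adjusted p = 0.046), and the adjusted p was 0.074 to 0.19 without untreated 1, untreated 3, DMSO 1, DMSO 2 or DMSO 3. MYO7B, an unconventional myosin, rose by 1.26 (adjusted p = 0.034), with 0.062 to 0.14 without untreated 2, untreated 3, DMSO 1, DMSO 2 or DMSO 3. ZNF441 lost its call without untreated 1, DMSO 1, DMSO 2 or DMSO 3 (0.074 to 0.15), and LINC01535 without untreated 2, DMSO 1 or DMSO 3 (0.055 to 0.068).

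Several SOX factors fell. Of 13 genes tested whose symbols begin with SOX, 12 of them coding for SOX proteins and 1 the antisense RNA SOX9-AS1, 5 fell and none rose (38.5%, against 14.1% of all genes), with a median change of -0.43 (all genes 0.02; -0.31 after centring). After centring 4 were lower and 1 was higher, and after quantile normalization 5 and 1. SOX2, a pluripotency and neural progenitor factor, read 1416, 1830 and 1653 without and 675, 577 and 684 with DMSO. It fell from 1633 ± 208 to 645 ± 59.1 (change -1.31, SE 0.13, adjusted p = 1.0e-05), with no overlap. SOX9, the master factor of cartilage, read 4801, 6638 and 5647 against 2528, 2569 and 2866 (change -1.09, SE 0.10, adjusted p = 6.0e-06). SOX4 read 7234, 7713 and 7781 against 4474, 4625 and 5005 (change -0.69, SE 0.07, adjusted p = 1.9e-05). For both factors every DMSO array was below every untreated array.

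SOX5, a partner of SOX9 in cartilage, fell from 347 ± 41.4 to 181 ± 27.7 (change -0.89, adjusted p = 0.0024). SOX13 fell by 0.55 (adjusted p = 0.02). Its adjusted p was 0.054 to 0.082 without untreated 1, DMSO 1 or DMSO 2, 0.072 after centring and 0.17 for the mean of its 3 probe sets. The 8 members not called ran from -0.48 to 0.68.

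Some epithelial markers were also lower with DMSO. Of 10, 6 were tested, 4 fell and none rose (66.7%, against 14.1% of all genes called and 5.98% lower), with a median of -0.39. After centring 2 were lower. Their summed signal was 27838 to 29018 on the untreated and 20626 to 21302 on the DMSO arrays. In bulk RNA, fewer cells that express a marker and less of it per cell cannot be told apart. EPCAM, an epithelial adhesion molecule, read 1693, 1652 and 1529 without and 1096, 921 and 1007 with DMSO, without overlap (change -0.68, SE 0.10, adjusted p = 4.4e-04). KRT14, a keratin of basal epithelium, read 376, 342 and 398 against 88.0, 81.1 and 122 (change -1.79, SE 0.24, adjusted p = 1.4e-04).

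The pair of simple-epithelium keratins changed less. KRT18 read 17272, 18314 and 18031 without and 12437, 13469 and 12712 with DMSO (change -0.47, SE 0.09, adjusted p = 0.0022; 0.077 after centring). KRT8 fell by 0.30 (adjusted p = 0.026), and this call ended after centring (0.36) and without untreated 1, untreated 2, DMSO 1, DMSO 2 or DMSO 3 (0.052 to 0.095). KRT75, a hair follicle keratin outside the marker list, read 1808, 1582 and 1358 against 577, 604 and 659 (change -1.34, SE 0.12, adjusted p = 4.0e-06), with the groups far apart. Of 17 genes tested whose symbols begin with KRT, 5 fell and none rose (29.4%, against 14.1% of all genes), and after centring 3 fell. These 17 include the pseudogenes KRT17P5 and KRT8P12 and the antisense RNA KRT10-AS1. KRT14, KRT18 and KRT8 are counted both here and among the epithelial markers. CDH1, E-cadherin, changed by -0.10 and was not called.

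Several genes of actin filaments and contractility rose. Of 34 listed actin, myosin and SRF target genes, 29 were tested, 9 rose and none fell (31.0%, against 14.1% of all genes called and 8.14% higher), with a median change of 0.16. The count was 4 without DMSO 2. With the mean of all probe sets of a gene 5 rose, 2 fell and the median was 0.01. TAGLN (transgelin), an actin-binding protein of smooth muscle, read 1513, 1446 and 1412 without and 2703, 3222 and 3042 with DMSO. It rose from 1457 ± 51.4 to 2989 ± 264 (change 1.03, SE 0.11, adjusted p = 2.9e-05) with no overlap. MYL12A, a myosin regulatory light chain, read 4349, 6403 and 5653 against 9561, 9397 and 9025 (change 0.79, SE 0.15, adjusted p = 0.0019). TPM2, a tropomyosin that stiffens actin filaments, read 7279, 7654 and 7285 against 10030, 11103 and 10894 (change 0.53, SE 0.08, adjusted p = 3.4e-04).

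A further tropomyosin gene, TPM4, read 874, 787 and 833 without and 1073, 1222 and 1157 with DMSO (change 0.46, SE 0.11, adjusted p = 0.0084). All 3 DMSO arrays were above the untreated ones. Of 7 called members with a RefSeq promoter in the table, only TPM4 had a CArG box, the motif that SRF binds. A promoter spans 250 bases before to 50 after the start site (GRCh38.p14). TAGLN had no promoter in the table and was not searched. The stretch shown, chr19:16067338-16067397 on the + strand, has the CArG box in capitals, beginning 173 bases before the start site.
TPM4: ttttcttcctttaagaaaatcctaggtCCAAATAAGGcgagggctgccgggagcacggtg

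Both strands were searched. The box was in the promoters of 1 of 7 called and 3 of 26 tested members with a promoter in the table (11.5%), and in 118 of 11013 promoters of all genes tested (1.07%). The list was made to hold SRF targets, so a higher share of the box in it can follow from that choice. This motif was chosen after the change was seen, and a match is a description, not a bound site.

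The other actin members called were closer to the threshold. LIMA1, an actin bundler, rose by 0.34 (adjusted p = 0.011; 0.057 without DMSO 2). PDLIM7, a LIM protein of actin fibres, rose by 0.69, and its adjusted p of 0.021 became 0.051 to 0.076 without untreated 2, untreated 3, DMSO 1 or DMSO 2. PFN1 (profilin), which feeds actin monomers to filament ends, rose by 0.37 (0.029; 0.052 to 0.12 without untreated 3, DMSO 1, DMSO 2 or DMSO 3). CNN1 (calponin) rose by 0.55 (0.041; 0.066 to 0.17 without untreated 1, untreated 2, untreated 3, DMSO 2 or DMSO 3). The myosin light chain gene MYL9 rose by 0.39 (0.045; 0.084 to 0.18 without untreated 1, untreated 3, DMSO 2 or DMSO 3). The smooth muscle actin gene ACTA2 was at 198 ± 60 and 272 ± 15.1, overlapped between the groups and was not called (change 0.46, adjusted p = 0.065).

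All 4 ID genes, which lie downstream of BMP signals, were called higher with DMSO, as were 8.14% of all genes. They are not a list or counted family of their own, and ID2 was added after its values were seen. The group of 4 was thus formed with the values known. ID1 read 12776, 12913 and 13551 without and 20968, 21203 and 20033 with DMSO (change 0.66, SE 0.09, adjusted p = 1.5e-04). ID2 read 917, 844 and 871 against 1319, 1326 and 1216 (change 0.54, SE 0.09, adjusted p = 9.8e-04). The groups were apart in both genes, by more than the spread of either. ID3 read 2951, 3593 and 3207 against 5340, 5364 and 5556, a rise from 3250 ± 323 to 5420 ± 119 (change 0.74, SE 0.10, adjusted p = 2.5e-04). ID4 read 1140, 1557 and 1894 against 2436, 2540 and 2612 (change 0.75, SE 0.13, adjusted p = 0.0012). Neither overlapped, and the untreated arrays spread more than the DMSO arrays in both. The mean of all probe sets was not called for ID2 (2 probe sets, adjusted p = 0.08) or ID4 (4 probe sets, 0.12).

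The 120 bases before each start site are given because the 4 genes moved together. They come from RefSeq, GRCh38.p14, at chr20:31605169-31605288 (ID1, + strand), chr2:8681936-8682055 (ID2, +), chr1:23559502-23559621 (ID3, - strand) and chr6:19837250-19837369 (ID4, +), and capitals mark the TATAAA motif on either strand.
ID1: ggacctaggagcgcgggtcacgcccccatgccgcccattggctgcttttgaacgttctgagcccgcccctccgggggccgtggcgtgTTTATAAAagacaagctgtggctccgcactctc
ID2: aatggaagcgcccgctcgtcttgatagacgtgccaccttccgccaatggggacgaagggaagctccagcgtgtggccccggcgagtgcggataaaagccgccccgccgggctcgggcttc
ID3: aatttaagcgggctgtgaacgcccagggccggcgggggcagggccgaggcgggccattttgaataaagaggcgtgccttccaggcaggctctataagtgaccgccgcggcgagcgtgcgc
ID4: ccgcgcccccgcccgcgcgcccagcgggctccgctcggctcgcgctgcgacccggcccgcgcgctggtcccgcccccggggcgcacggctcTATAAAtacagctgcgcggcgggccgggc

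In the 300-base window TATAAA was in ID1, by matches on both strands that overlap and begin 33 and 31 bases before the start site, and in ID4, 29 bases before it. It was thus in 2 of 4 ID promoters (50%), and in 666 of 11013 promoters of the genes tested (6.05%). CCAAT was in ID1, ID2 and ID4, and in 36.2% of the promoters of the genes tested. GGCGCC, also searched, was in none of the 4 ID promoters, and in 30.2% of the promoters of the genes tested. Letters absent from these windows say nothing of the factors that bind there.

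The wider list of TGF-beta and YAP target genes, which holds members of the ID family, moved both ways: of 30 tested, 5 rose and 3 fell (26.7%, against 14.1% of all genes), with a median of 0.07. With the mean of all probe sets 2 rose and 6 fell. LATS2, a kinase that restrains YAP, fell from 2683 ± 145 to 1856 ± 87.4 (change -0.53, adjusted p = 3.1e-04). It was the only member called lower without DMSO 2 or without untreated 1.

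Of 21 listed genes of fatty acid synthesis and desaturation, 18 were tested, 7 fell and none rose (38.9%, against 14.1% of all genes called and 5.98% lower). The median of the 18 was -0.01, and -0.21 with the mean of all probe sets of a gene, where 5 fell and all genes had a median of -0.01. The count was 4 without untreated 1, untreated 2 or DMSO 3. SREBF1, the transcription factor of the pathway, read 1464, 1219 and 908 without and 736, 601 and 609 with DMSO. It fell from 1197 ± 278 to 649 ± 75.8 (change -0.85, SE 0.17, adjusted p = 0.0031), and the lowest untreated array was above the highest DMSO array. FADS2, the delta-6 desaturase, read 1143, 943 and 982 against 636, 619 and 589 (change -0.72, SE 0.13, adjusted p = 0.0013). ACACA, the cytosolic acetyl-CoA carboxylase that makes malonyl-CoA, read 2059, 2003 and 1864 against 1575, 1299 and 1292 (change -0.51, SE 0.10, adjusted p = 0.0039).

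SCD5, a stearoyl-CoA desaturase, fell from 3335 ± 378 to 2170 ± 40.1 (change -0.61, SE 0.10, adjusted p = 7.0e-04), by 1 of its 4 probe sets, and the mean of the 4 was not called (0.22). FASN, the fatty acid synthase, read 893, 892 and 897 against 703, 675 and 672 (change -0.38, SE 0.10, adjusted p = 0.022). Although its arrays did not overlap, the adjusted p was 0.19 after centring and 0.052 to 0.074 without untreated 1, untreated 2, untreated 3, DMSO 2 or DMSO 3. ELOVL6, a fatty acid elongase, fell by 0.41 (0.029), with 0.17 after centring and 0.065 to 0.13 without untreated 1, untreated 2, DMSO 2 or DMSO 3. ACACB, the mitochondrial carboxylase, fell by 1.28 (0.035), with 0.062 to 0.15 without untreated 1, untreated 2, untreated 3, DMSO 1 or DMSO 3.

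Of 20 cholesterol synthesis genes tested, 3 rose and none fell (15%, near the 14.1% of all genes), with a median of 0.19. They were HMGCS1, the synthase before the rate-limiting step (change 0.36, adjusted p = 0.035), EBP, a sterol isomerase (0.40, 0.034), and HSD17B7, a sterol ketoreductase (0.35, 0.02). None of the 20 was called without untreated 3 or without DMSO 1, 1 was without untreated 2 or DMSO 2, and 7 were after centring. HMGCS1 and EBP also lost the call without DMSO 3, and over the arrays that ended their calls the adjusted p was 0.074 to 0.14 for HMGCS1, 0.057 to 0.13 for EBP and 0.054 to 0.082 for HSD17B7. The sterol-response motifs TCACCCCAC and TCACCCCAT were in none of 15 promoters of the fatty acid list that were in the table. Of 18 promoters of the cholesterol list, TCACCCCAC was in 1, that of SREBF2 (5.56%), and TCACCCCAT in none. Over the promoters of the genes tested the shares were 0.363% and 0.118%. At such low shares, the lack of a match in 15 promoters says little.

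Genes of ribosome biogenesis moved both ways. Of 41 tested, 10 rose and 3 fell (31.7%, against 14.1% of all genes), with a median change of 0.16, or 0.06 with the mean of all probe sets. The rises numbered 5 without DMSO 3, and 6 without DMSO 2 or with the mean of all probe sets. The falls numbered 1 without untreated 2, DMSO 1 or DMSO 3. NOP2, a methyltransferase of 28S ribosomal RNA, read 691, 609 and 832 without and 1230, 1331 and 1370 with DMSO (change 0.88, SE 0.11, adjusted p = 1.1e-04). POLR1E, a subunit of RNA polymerase I, read 1128, 1170 and 1434 against 1818, 1908 and 1893 (change 0.59, SE 0.10, adjusted p = 6.8e-04). In both genes the groups did not overlap.

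TAF1D, of the RNA polymerase I initiation factor SL1, rose from 1606 ± 182 to 2395 ± 239 (change 0.57, adjusted p = 0.0043). UTP20, of the small-subunit processome, went the other way, reading 1502, 1353 and 1522 against 903, 950 and 906 (change -0.65, SE 0.12, adjusted p = 0.0018). Of 10 UTP genes tested, most of them processome subunits, 5 rose and 2 fell (70.0%, against 14.1% of all genes). With the mean of all probe sets 3 of them rose and 1 fell. UTP15 rose by 0.60 by its brighter probe set, and its other probe set was called lower. The probe sets for 18S and 28S ribosomal RNA, which these proteins help make, were lower with DMSO as given above, and the relation was not tested.

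Cytosolic ribosomal protein genes lay slightly lower. Of 58 tested, 4 rose and 5 fell (15.5%, against 14.1% of all genes), and 50 of 58 had a negative change, with a median of -0.18, or -0.06 after centring and -0.03 after quantile normalization, where all genes had medians of 0.15 and 0.05. No member was called lower after centring. RPL24, a large-subunit protein, read 37040, 37529 and 37585 against 27703, 30115 and 30432 (change -0.35, adjusted p = 0.011; 0.21 after centring). RPL22L1, a paralogue of RPL22, rose from 6438 ± 501 to 10018 ± 487 (change 0.64, SE 0.09, adjusted p = 2.1e-04). Ribosomal protein genes have many processed pseudogenes that can share probes.

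Of 44 HNRNP, SR and related splicing genes tested, 8 rose and 2 fell (22.7%, against 14.1% of all genes), with a median of 0.08. The rises numbered 5 without untreated 2, DMSO 1, DMSO 2 or DMSO 3. HNRNPL, which binds CA-rich RNA, fell most, reading 3752, 4020 and 4630 without and 2165, 2472 and 2656 with DMSO (change -0.76, SE 0.11, adjusted p = 3.8e-04). HNRNPH3, HNRNPDL, RBM5 and CLK1, the kinase that phosphorylates SR proteins, rose by 0.46, 0.41, 0.47 and 0.46. The 4 had adjusted p of 0.0046, 0.006, 0.0027 and 0.0098. With the mean of all probe sets the median was -0.03 and 7 members of this list were called lower, against 2 with 1 probe set a gene, and RBM5 had a change of 0.00.

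**Figure D3:**
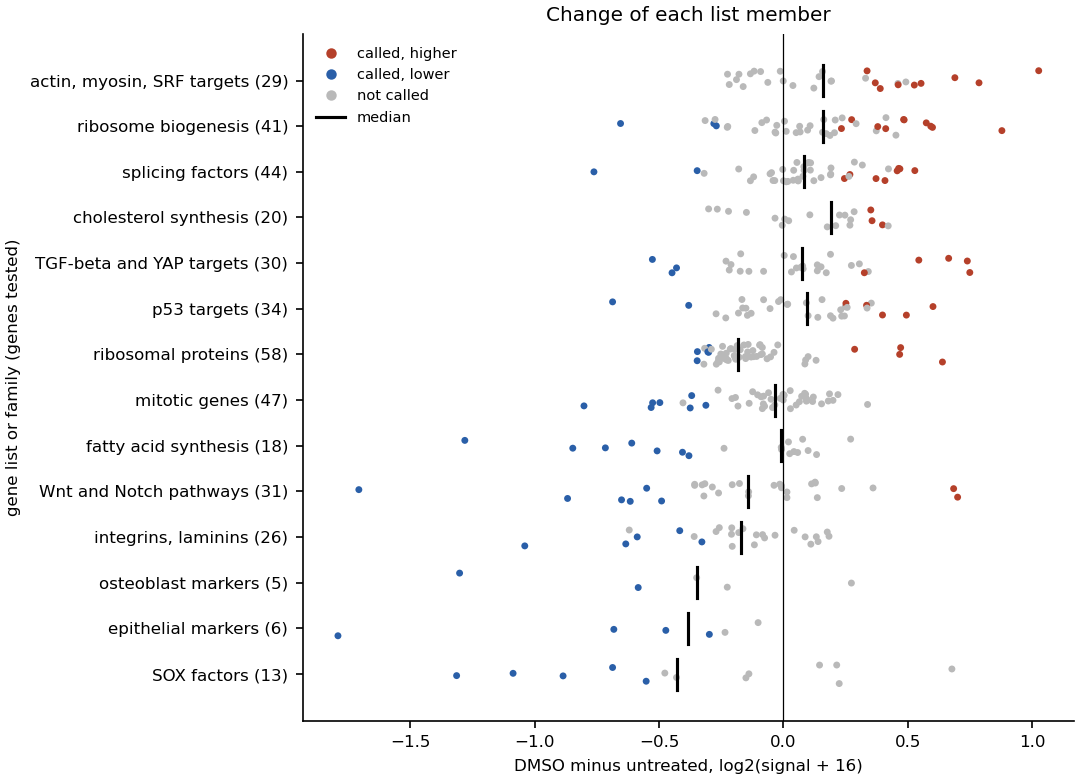
Change of each tested member (horizontal axis, difference in log2(signal + 16)) of 14 gene lists or families (vertical axis, with the number of genes tested), with called members in colour and the median as a bar. The SOX, epithelial, fatty acid, mitotic, integrin and osteoblast groups hold calls on the lower side only, the actin and cholesterol groups on the higher side only. In 13 of the 14 groups most members are grey, the exception being the epithelial markers with 4 of 6 called.

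Several adhesion genes fell. Of 26 integrin, laminin and basement membrane genes tested, 5 fell and none rose (19.2%, against 14.1% of all genes called and 5.98% lower), with a median of -0.17 (-0.05 after centring, with 3 called). The count was 3 also without untreated 2, DMSO 2 or DMSO 3. ITGB8, the integrin beta subunit that activates latent TGF-beta, read 4076, 4893 and 4774 without and 2393, 2055 and 2203 with DMSO (change -1.04, SE 0.11, adjusted p = 1.9e-05). ITGA2, a collagen-binding alpha subunit, read 736, 805 and 871 against 560, 467 and 511 (change -0.63, SE 0.12, adjusted p = 0.0021). LAMB3, a chain of laminin-332, read 2560, 2190 and 2035 against 1571, 1442 and 1467 (change -0.59, SE 0.11, adjusted p = 0.0018).

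None of these 3 genes overlapped between the groups. The matrix protein gene TNC and the laminin chain gene LAMB1 fell by 0.42 and 0.33, and both calls ended after centring (0.17 and 0.27). They also ended without untreated 2, DMSO 2 or DMSO 3 (TNC, 0.086 to 0.10) and without these or untreated 1 (LAMB1, 0.053 to 0.10).

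Among 31 Wnt and Notch pathway genes tested, 6 fell and 2 rose (25.8%, against 14.1% of all genes), with a median of -0.14 (-0.02 after centring, with 4 lower). NOTCH1, the receptor, read 962, 799 and 846 without and 531, 425 and 452 with DMSO (change -0.87, SE 0.13, adjusted p = 5.0e-04). HES1, a repressor that Notch induces, read 1732, 1855 and 1695 against 1214, 1051 and 1170 (change -0.62, SE 0.08, adjusted p = 1.9e-04). Receptor and target were thus both lower, without overlap. FZD2, a Wnt receptor, fell from 4764 ± 503 to 3040 ± 462 (change -0.65, adjusted p = 0.0015), and RNF43, given above, is also in this list.

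SFRP1, a secreted Wnt antagonist, fell by 0.49 (adjusted p = 0.0041; 0.063 after centring). The R-spondin receptors went the other way. LGR4 read 587, 749 and 617 without and 1216, 963 and 1023 with DMSO (change 0.70, SE 0.14, adjusted p = 0.0036). LGR5 rose by 0.68 (0.013), but its adjusted p was 0.053 to 0.061 without untreated 3, DMSO 1 or DMSO 3, and LGR4 was then the only member called higher.

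Matrix genes moved both ways. The gelatinases MMP9 (349 ± 51.1 to 155 ± 20.7) and MMP2 (3250 ± 525 to 1852 ± 94.5) fell by 1.09 and 0.79, with adjusted p of 6.6e-04 and 1.1e-04. The metalloprotease ADAM12 and the urokinase receptor PLAUR rose by 0.85 and 0.64 (adjusted p = 3.6e-04 and 0.0013). Of 27 matrix proteases and inhibitors tested, 4 rose and 4 fell (29.6%, against 14.1% of all genes). Of 15 MMP genes tested, 3 rose and 3 fell (40%), with a negative change in 11 and a median of -0.55. Of 27 collagens and collagen modifying enzymes tested, 2 rose and 4 fell (22.2%), and after centring 5 rose and 1 fell. The collagen V chains COL5A2 (1992 ± 241 to 3512 ± 228) and COL5A1 (3493 ± 357 to 5538 ± 277) rose by 0.82 and 0.67, whereas LOXL1, a collagen and elastin cross-linking oxidase, fell by 0.57 (adjusted p = 1.1e-04, 0.0029 and 0.0014).

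Of the osteoblast markers, TNFRSF11B (osteoprotegerin), the decoy receptor that restrains osteoclasts, read 372, 533 and 523 without and 213, 172 and 163 with DMSO (change -1.30, SE 0.24, adjusted p = 0.0017). CDH11, osteoblast cadherin, fell from 2248 ± 55.1 to 1497 ± 111 (change -0.58, adjusted p = 0.0013). The other 3 tested markers were not called, so 2 of 5 fell (40%, against 14.1% of all genes called and 5.98% lower). SEMA3C, a secreted semaphorin, fell from 7342 ± 81.1 to 4827 ± 666 (change -0.61, adjusted p = 9.9e-04). Of 18 semaphorin genes tested 4 fell and none rose (22.2%, against 14.1% of all genes called and 5.98% lower), whereas after centring 3 fell and 1 rose.

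The study measured p53 activation, and a minority of p53 target genes differed between the 2 control groups. Of 34 tested, 5 rose and 2 fell (20.6%, against 14.1% of all genes), with a median of 0.10. After centring 9 rose. CDKN1A, the p21 inhibitor of cyclin-dependent kinases, read 1352, 1399 and 1333 without and 1292, 1603 and 1627 with DMSO. These values overlapped and the change of 0.14 (SE 0.11, adjusted p = 0.42) was not called. MDM2, the ubiquitin ligase of p53, read 3590, 3383 and 3527 against 4359, 4649 and 4247. It did not overlap (change 0.33, SE 0.07, adjusted p = 0.0046), but the call is from 1 of 8 probe sets, and their mean had a change of -0.09 (0.61).

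GADD45A, a stress-induced growth arrest gene, read 4411, 4133 and 4081 without and 4915, 7129 and 7434 with DMSO (change 0.60, SE 0.12, adjusted p = 0.003), with DMSO 1 nearest to the untreated arrays. TIGAR, which lowers glycolytic flux, and KITLG, the ligand of KIT, rose by 0.40 and 0.49. ZMAT3, an RNA-binding p53 target, fell, reading 2893, 2681 and 3256 against 1629, 2089 and 1761 (change -0.69, SE 0.13, adjusted p = 0.0017). That was by 1 of its 5 probe sets, and their mean was not called (0.43). The count of falling targets was 1 without untreated 2 or any single DMSO array.

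Some stress and early-response genes rose, but their lists were called at about the share of all genes (14.1%). ATF3, a stress transcription factor, read 516, 611 and 570 without and 735, 1219 and 1861 with DMSO (change 1.05, SE 0.23, adjusted p = 0.0055), so its DMSO arrays spread widely but stayed above the untreated ones. DUSP1, a phosphatase of MAP kinases, read 2513, 2265 and 2491 against 3939, 4568 and 5098 (change 0.89, SE 0.19, adjusted p = 0.0045). Of 27 immediate early genes tested, 4 rose and none fell (14.8%). The small heat shock proteins HSPB8 and CRYAB rose by 0.81 and 0.61 (adjusted p = 5.0e-05 and 0.0026), and of 30 heat shock genes tested 4 rose and 1 fell (16.7%). KLF2, a zinc-finger factor, rose by 0.86 (0.012), with 0.053 without untreated 2 and 0.067 without DMSO 3. ISG15, a ubiquitin-like protein induced by interferon, rose from 647 ± 8.27 to 922 ± 74.2 (change 0.50, adjusted p = 0.003), with 3 of 22 interferon-stimulated genes tested higher and none lower (13.6%).

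Among 47 mitotic genes, all tested, 7 fell and none rose, while the median was -0.03 (0.09 after centring, with 4 lower and 1 higher). That is 14.9% of the list against 14.1% of all genes. TOP2A, the topoisomerase that untangles chromosomes, read 15562, 13446 and 14572 without and 9099, 7988 and 7896 with DMSO (change -0.80, SE 0.16, adjusted p = 0.0027). TPX2, a spindle assembly factor, read 7285, 7608 and 7707 against 5257, 5185 and 5173 (change -0.53, SE 0.07, adjusted p = 1.0e-04). Neither overlapped. The kinesin gene KIF14, the kinetochore gene CENPF and the mitotic kinase gene AURKA fell by 0.53, 0.50 and 0.37, and for AURKA the adjusted p was 0.14 after centring. Of 28 histone genes tested 3 fell and 1 rose (14.3%, close to the share of all genes), with the linker histone gene H1-2 lower by a change of -0.61 (adjusted p = 2.4e-04) and H2AX, marked at DNA breaks, by -0.56 (0.0042; 0.064 after centring).

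Of 33 chromatin enzymes and readers tested, 6 fell and 3 rose (27.3%, against 14.1% of all genes). BRD2 and BRD3, bromodomain readers of acetylated histones, fell from 2987 ± 275 to 1561 ± 74.7 and from 1603 ± 130 to 941 ± 69.5 (changes -0.93 and -0.76, adjusted p = 6.2e-04 and 3.0e-04). The acetyltransferase gene KAT6A fell by 0.58 and the deacetylase gene HDAC1 rose by 0.44. Of 14 osmotic response genes tested 4 fell and 2 rose (42.9%; after centring 1 fell and 2 rose), with the water channel gene AQP1 higher (0.64, adjusted p = 0.0089) and the kinase gene SGK1 lower (-0.64, 0.0011). BHLHE41, a repressor of the circadian clock, fell from 951 ± 176 to 462 ± 146 (change -1.04, adjusted p = 0.0021), and of 17 clock genes tested 3 fell (17.6%).

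Among smaller groups, 5 of 19 homologous recombination and Fanconi anaemia genes rose and none fell (26.3%, against 14.1% of all genes; median 0.16, or -0.04 with the mean of all probe sets), and FANCL, the ligase of the Fanconi pathway, rose by 0.51 (adjusted p = 0.0013). The count was 2 or 3 without any 1 array. Of 23 NRF2 targets 6 rose and 2 fell (34.8%), with TXNRD1, thioredoxin reductase, higher by 0.40 (0.0035). Of 21 tubulins 4 rose and 2 fell (28.6%), with TUBB2A higher by 0.49 (9.7e-04). Of 17 GALNT glycosyltransferase genes tested 4 fell and 1 rose (29.4%). Beside GALNT5, given above, GALNT12 and GALNT14 fell by 1.24 and 0.63 (0.004 and 4.4e-04).

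Some lists not described above were called more often than the 14.1% of all genes. Cytosolic aminoacyl-tRNA synthetases had 4 higher and 3 lower of 17 (41.2%), or 1 and 3 with the mean of all probe sets. KRAB corepressor and zinc-finger regulators had 4 and 2 of 20 (30%), and osteoblast lineage genes 3 lower of 11 (27.3%). TRIM ubiquitin ligases had 3 and 5 of 36 (22.2%), and NF-kB targets and cytokines 3 and 1 of 19 (21.1%). The lists that follow were near or below the share of all genes. Respiratory complex I had 3 higher and 2 lower of 33 (15.2%), lysosomal proteins 3 and 3 of 36 (16.7%) and the proteasome 1 and 3 of 35 (11.4%). DNA replication genes had 4 and 1 of 46 (10.9%), and mitochondrial ribosomal proteins 5 and 1 of 75 (8.0%). At least 1 member was called in 50 of 55 lists. Over 169 families of at least 10 genes that share the letters of their symbol before the first digit, the median share called was 13.3%. In 6 families it was over 30%: UTP (70.0%), DNAJB (60%), MMP (40%), SOX (38.5%), SAMD (33.3%) and FKBP (30.8%), and in 17 no gene was called. With 10 to 15 genes in a family such as UTP or MMP, 1 gene moves the share by several percent.

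The values of the drug-treated arrays stand beside these changes as a description. The doxorubicin comparison shares the untreated arrays and the nutlin-3 comparison shares the DMSO arrays, so neither is independent of the change between the controls. For PHLDA1 the change was -1.89 with DMSO, 0.22 with doxorubicin against untreated and 0.65 with nutlin-3 against DMSO. HSD17B3 had changes of -1.92, 1.22 and 0.74 in the same order, and TAGLN 1.03, -1.17 and -0.35. For ROR1 they were -2.0, -1.47 and 0.55, and for ITGA2 -0.63, 0.54 and 2.50. SREBF1 was lower at each step (-0.85, -1.87 and -1.06), and so was SOSTDC1 (-2.33, -3.37 and -1.75).

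For ID1 these changes were 0.66, -0.66 and 0.24, and for SOX2 -1.31, -0.31 and -1.0. The p53 targets CDKN1A (0.14, 2.47 and 2.30), MDM2 (0.33, 1.42 and 2.14) and ZMAT3 (-0.69, 1.79 and 1.89) had larger changes with either drug than between the controls. For GALNT5 the order was -1.75, 1.89 and 2.44.

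**Figure D4:**
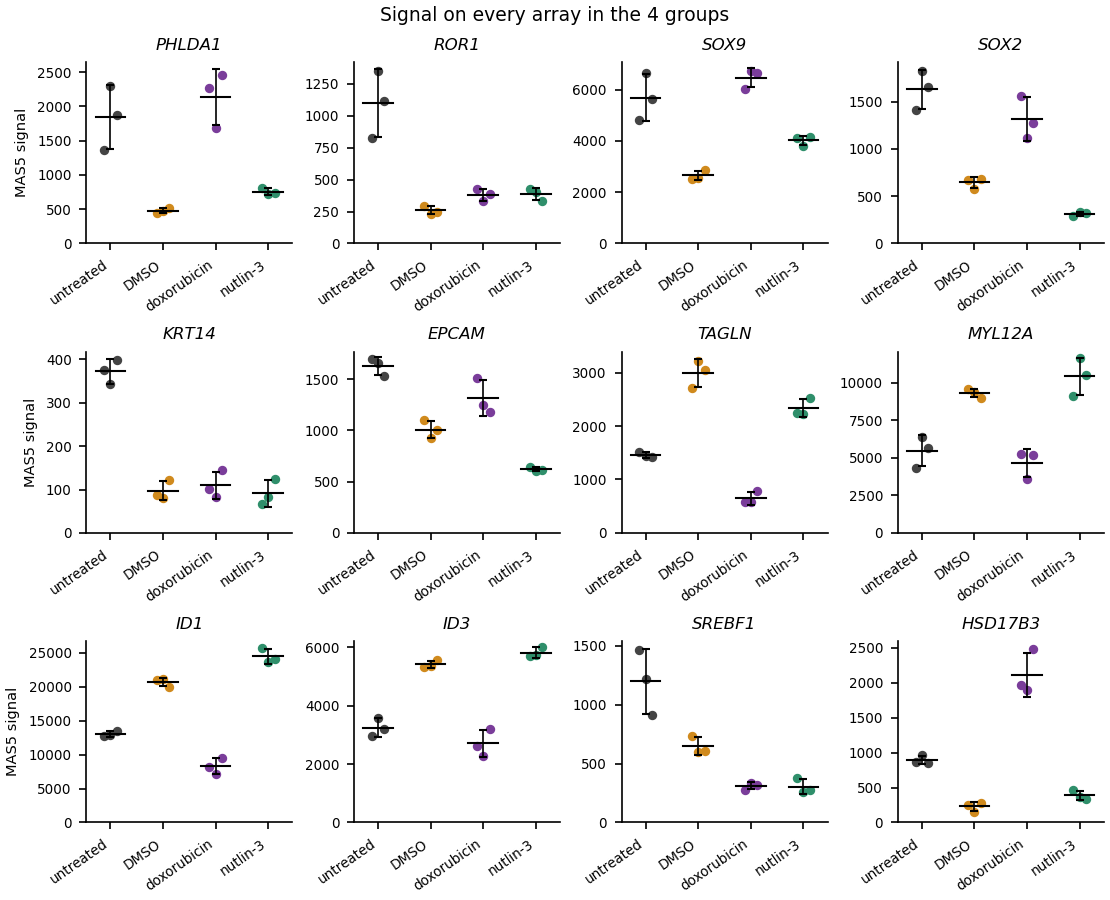
MAS5 signal (vertical axis) of 12 genes on every array of the 4 groups, with the mean ± SD of 3 arrays as bars. PHLDA1, ROR1, SOX9, SOX2, KRT14 and EPCAM are lower with DMSO than untreated on every array, and TAGLN, MYL12A, ID1 and ID3 are higher.

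Probe sets of 1 gene did not always give the same change. More than 1 probe set passed the filter for 6970 genes, and for 64 of them these were called both higher and lower. Of 1168 called genes with several probe sets, 662 had all of them on the same side of 0. In a fit of every probe set, 3474 of 54613 were called (6.36%), 1445 higher (2.65%) and 2029 lower (3.72%). Those that stood for a gene, its brightest, were more often higher (798 against 584), and the other probe sets of the same genes that passed the filter were more often lower (398 against 988).

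All 6 probe sets of PHLDA1 were called lower, with changes from -1.97 to -1.19, as were all 3 of ROR1 and both of SOX9 (-1.85 and -1.09) and SOX2. Of 5 for SOX4, 4 were lower. For TAGLN 2 were higher (1.05 and 1.03) and the third was at -0.15. For BRD2 the changes were -1.47, -0.93 and -0.36, and for TOP2A -0.80, -0.51 and -0.06. NAA15, an acetyltransferase subunit, had 1 probe set at -1.41 and the others at 0.03 and 0.05. MALAT1, an abundant nuclear RNA, had 12 probe sets from -1.30 to 0.49, of which 3 were called lower, while its brightest overlapped between the groups and was not called (change 0.20, adjusted p = 0.49). SEMA3C and SFRP1 had larger changes by the mean of all their probe sets (-0.97 and -1.09). TAGLN (0.64), MYL12A (0.43), ACACA (-0.31), TOP2A (-0.45), AP1G2-AS1 (0.88), ZNF441 (0.91) and CABYR (0.88) had smaller ones and stayed called. Where the probe sets lie on the transcripts was not tested.

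The mean of all probe sets was also not called for the following genes: PDLIM7 (adjusted p = 0.22), TPM4 (0.14), MYL9 (0.62), LIMA1 (0.95), UTP15 (0.83), KIF14 (0.14), AURKA (0.063), H2AX (0.38), CDH11 (0.11), LATS2 (0.15), KAT6A (0.42), ATF3 (0.095), AQP1 (0.23), LGR5 (0.097), EBP (0.96), ACACB (0.85), ELOVL6 (0.13), TNC (0.089), RPL24 (0.063) and FGF5 (0.08).

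**Figure D5:**
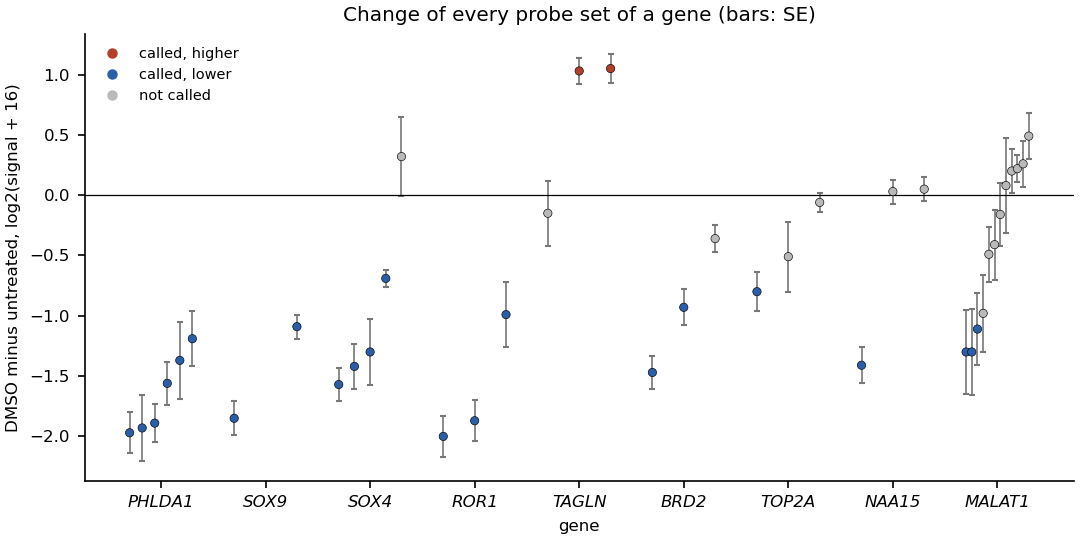
Change of every probe set past the filter (vertical axis, difference in log2(signal + 16), bars are SE) for 9 genes (horizontal axis), coloured where called. All 6 probe sets of PHLDA1 lie below -1, whereas those of MALAT1 run from -1.30 to 0.49.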

How the data were processed

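RNA of U2OS cells in 4 groups of 3 was measured on Affymetrix U133 Plus 2.0 arrays. The authors deposited 1 linear signal intensity for each probe set and array, made with MAS5 per the submitters' processing notes, whose version and settings are not given in the sources used here. Its trimmed mean (2% at each end) was 500.06 or 500.07 on every array, and that scaling was kept. No detection calls were used.

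Of 54675 probe sets 62 were controls. Probe sets with a mean over 12 arrays under the 40th percentile (a signal of 49.3) were left out. Of all probe sets, 41097 had 1 gene symbol in the platform annotation, 1801 had several and 11777 were not listed. Symbols were updated through the RefSeq gene table of GRCh38.p14 (13657 of 13673 matched). A gene stood by its brightest probe set with exactly 1 symbol. Limma 3.58.1 in R 4.3.3 fitted 4 group means to log2(signal + 16) of 12 arrays, by lmFit and eBayes (trend by intensity), which was tested on simulated data. No set test was run. Same-numbered arrays had correlated deviations of 0.10, 0.01 and 0.02, and other-numbered ones ran from -0.08 to 0.07. Deviations from the mean of only 3 arrays cannot settle whether the numbers pair the samples. Promoter sequences are RefSeq's.

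The comparison, its 55 gene lists and families were chosen with earlier results of these data known. Named genes are the 15 largest rises and falls among called genes whose arrays do not overlap, up to 3 called members of each list in each direction, and CDKN1A and MDM2. Chosen after their values were seen were KRT8, KRT75, CDH1, SOX2, SOX4, SOX5, SOX13, CNN1, TPM2, TPM4, MYL9, PFN1, LIMA1, ACTA2, ID2, SCD5, ACACA, ELOVL6, FASN, TAF1D, TNC, LAMB1, HES1, SEMA3C, MALAT1, NAA15, CENPF, AURKA, HNRNPDL, HNRNPH3, SFRP1, GALNT12, GALNT14, the group of ID genes and, among the motifs, the CArG box and TATAAA in the ID genes. Lists with no gene called are given in the closing section. Alternatives were other scalings, pseudocounts, filters, probe set choices, variance models, a replicate block and leaving out each array.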

Additional observations from a re-analysis of the deposited data

How the results depend on the processing

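Only 3 arrays a group were measured and the labels give no culture or batch, so the precision rests on 6 arrays. Dim genes limit it further, since changes near the filter level depend on the pseudocount. After centring each array on its median, 385 genes were lower, with 2 epithelial markers, 3 integrin and laminin genes and 4 mitotic genes among them. With the mean of all probe sets 5 actin and 6 ribosome biogenesis genes were higher. Without an intensity trend these were 5 and 6, with 3 integrin and laminin genes lower and 5 splicing genes higher. Over every probe set 3474 were called and 2029 were lower. At an adjusted p under 0.01 there were 832 genes (457 higher, 375 lower), and at 2-fold or more 153 (40 and 113). The cause of these differences between settings was not tested.

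Leaving out 1 array left 1100 to 1594 genes called, 591 to 902 higher and 509 to 692 lower. Members called were then 4 to 8 for actin, 5 to 8 for ribosome biogenesis, 5 to 7 for splicing, 4 to 6 for fatty acid synthesis, 3 to 5 for integrins and laminins, 3 to 4 for epithelial markers, 4 to 6 for SOX and 5 to 7 for mitosis. With the replicate number as a block 2279 genes were called over 12 arrays (1895 shared with the fit without it) and 2505 over 6 arrays, so the numbers of calls stayed within 1.5 times. The sign turned, or the change became 0.00, in 7 called genes, and in MALAT1, which was not called. With the mean of all probe sets the change was -0.01 for LIMA1, -0.04 for UTP15, -0.09 for MDM2, -0.38 for MALAT1 and 0.00 for RBM5. Leaving out _x_at and _s_at probe sets where a gene has others, it was -0.15 for TAGLN, -0.16 for MYL9, -1.30 for MALAT1 and 0.07 for LATS2. Of 126 called genes named, 78 were called in every setting.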

Other observations

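No member was called in 5 lists. Of 19 ATP synthase subunits tested 1 had an unadjusted p under 0.05 in the limma fit. The largest changes were 0.56 in ATP5MF (86.5 untreated, 135 with DMSO, adjusted p = 0.32) and -0.25 in ATP5F1C (0.077). Of 10 adipose and muscle differentiation genes 4 had an unadjusted p under 0.05, with LPL, lipoprotein lipase, at -0.47 (adjusted p = 0.061) and PPARG, the adipocyte receptor, at 0.39 (0.13). After centring, 2 of these 10 were called higher. Of 8 nuclear long non-coding RNAs and snoRNA hosts 3 had an unadjusted p under 0.05, with GAS5 at -0.62 (adjusted p = 0.08) and EPB41L4A-AS1 at 0.37 (0.15). Of 3 endothelial markers 1 had an unadjusted p under 0.05, with PECAM1 at -0.65 (0.069) and TEK at -0.19 (0.75). None of the 4 leukocyte markers did, with LAPTM5 at -0.40 (0.23) and FCER1G at -0.28 (0.61).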
